A study of Homo sapiens with 11 samples.

Results

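DUSP and Sprouty genes encode brakes on the mitogen-activated protein kinase (MAPK) pathways, and 10 of them were followed here: the dual-specificity phosphatases DUSP1, DUSP2, DUSP4, DUSP5, DUSP6 and DUSP10, the Sprouty genes SPRY1, SPRY2 and SPRY4, and SPRED1. They were chosen by symbol, with earlier results of these data known. All 10 were found among the 28252 genes listed in the RNA-Seq files and among the 26237 promoters listed in the H3K4me3 ChIP-Seq files. RNA was measured in RT4, a line of human urinary bladder epithelial tumor cells, in 2 libraries each of untreated cells (UT), cells kept for 6 weeks in NiCl2 at 100 μM (Ni-E), and cells that after the same exposure spent 2 weeks without nickel (Ni-W). H3K4me3, a histone mark of active promoters, was measured in BEAS-2B, a human lung epithelial line, in 1 library for each condition, UT, Ni-E after the same dose and time, and Ni-W. The washed-out BEAS-2B cells were a single population expanded from a colony and grown without nickel for more than 6 months, so clone, time and washout cannot be told apart there.

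Growth factor receptors signal through RAS, RAF, MEK and ERK, and stress signals reach the related kinases JNK and p38. Each activated kinase carries phosphates on a threonine and a tyrosine, and DUSP phosphatases remove both. DUSP1, DUSP2, DUSP4 and DUSP5 are nuclear and inducible, DUSP5 being selective for ERK. DUSP6 is cytoplasmic and selective for ERK, while DUSP10 prefers JNK and p38. Sprouty proteins act further up, between the receptor and RAF, and SPRED1 carries the RAS inhibitor neurofibromin to the membrane. Many of these genes are themselves switched on by ERK, which makes them a feedback loop.

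The RNA-Seq libraries held 17075833 to 27736454 estimated counts, and replicate 2 was the deeper library in every condition. All 12 urothelial markers examined reached 1 TPM (a transcript level corrected for length and library total) in RT4, and they summed to 13307 to 16956 TPM in the 6 libraries. The 7 bronchial epithelial markers, which share KRT7, KRT8, KRT18, KRT19 and CDH1 with them, summed to 12807 to 16593 TPM. In UT replicate 1 KRT7 and KRT19 stood at 4384 and 4697 TPM. The sums therefore do not tell these epithelia apart. Of the leukocyte, endothelial and fibroblast markers CD3E, COL1A2 and DCN were listed at 0 in all 6 libraries. The summed level of the 7 fibroblast markers was 8.34 and 8.57 TPM in UT, 41.0 and 40.0 TPM in Ni-E and 46.3 and 36.5 TPM in Ni-W cells. ACTA2, smooth muscle actin, made up 6.61 and 7.48 TPM of this in UT and 34.2 to 41.2 TPM in the other 4 libraries, and edgeR called it higher in both Ni-E and Ni-W than in UT cells. COL3A1, a fibrillar collagen, stood at 0.84 and 0.26 TPM in UT, 4.13 and 2.18 TPM in Ni-E and 4.55 and 1.48 TPM in Ni-W cells, and was called higher than in UT in both by DESeq2 and with the replicate block described below, but not by edgeR without it. The 6 leukocyte markers summed to 7.98 to 8.14 TPM in UT and 11.3 to 14.1 TPM in the other 4 libraries. CD68 alone made up 7.33 and 7.30 TPM of this in UT and 10.55 to 13.43 TPM in the other 4. It was called higher in Ni-E and in Ni-W than in UT cells with the replicate block, but not by edgeR without it or by DESeq2. The 4 endothelial markers summed to 1.90 TPM or less in every library. Of the 12 urothelial markers 9 were below and 3 above 0 in Ni-E against UT cells, and edgeR called the uroplakin UPK1A, a terminal differentiation protein, lower (log2 fold change -2.27, adjusted p = 0.0376). DESeq2 also called the uroplakins UPK1B and UPK2 lower. With the replicate block UPK1A, UPK1B, UPK2, UPK3A and the transcription factor FOXA1 were called lower in Ni-E than in UT cells and higher in Ni-W than in Ni-E cells. UPK2, for example, stood at 285 and 402 TPM in UT, 96.2 and 128 TPM in Ni-E and 222 and 328 TPM in Ni-W cells, with Ni-E lowest as for SPRY4 and DUSP2. The part of these shifts in the values below was not tested. In BEAS-2B, 5 of 7 bronchial epithelial markers had a promoter level of at least 1 RPKM in all 3 libraries. KRT19 did not reach it in any, and CDH1 reached it in UT cells only, at 1.02 RPKM. Of the other lists, 3 of 7 fibroblast, 1 of 6 leukocyte and 1 of 4 endothelial markers reached it in all 3 libraries. In UT cells the fibroblast markers COL1A1 and ACTA2 held 8.74 and 8.12 RPKM, above KRT8, the highest bronchial marker, at 7.33 RPKM.

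The 250 bases before the start are shown for DUSP2, whose RNA was lowest in Ni-E cells, and for DUSP1, whose RNA was lowest in Ni-W cells. The start follows each window directly and is also where the GENCODE gene begins. The sequences are from RefSeq, GRCh38.p14, minus strand, written 5′ to 3′, and capitals mark matches to the searched letters. DUSP2 is chr2:96145441-96145690 and DUSP1 is chr5:172771196-172771445.
DUSP2: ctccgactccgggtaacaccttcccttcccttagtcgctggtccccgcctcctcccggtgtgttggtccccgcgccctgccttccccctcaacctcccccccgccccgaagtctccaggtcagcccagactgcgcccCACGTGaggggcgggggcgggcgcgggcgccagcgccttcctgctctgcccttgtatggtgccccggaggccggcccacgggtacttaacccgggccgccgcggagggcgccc
DUSP1: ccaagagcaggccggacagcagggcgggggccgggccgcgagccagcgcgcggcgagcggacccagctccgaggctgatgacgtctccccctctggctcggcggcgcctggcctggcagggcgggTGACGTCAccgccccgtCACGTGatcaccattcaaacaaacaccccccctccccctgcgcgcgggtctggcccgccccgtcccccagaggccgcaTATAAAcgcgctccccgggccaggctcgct
Letters were searched on both strands in the 250 bases before each of 35116 annotated starts, of which 12 belong to 8 members and none to DUSP5. The cyclic AMP response element TGACGTCA was in 1.6% of all windows and, among the members, in DUSP1. The core of the hypoxia response element, ACGTG, was in 18.5% of windows and in DUSP1 and DUSP2, in both as the palindrome CACGTG. The TATA box, searched as TATAAA, was in 10.7% of windows and in DUSP1, where it begins 30 bases before the start. The ETS core CCGGAA was in 14.5% of windows and in 1 window each of SPRY1, at a start 1591 bases inside the gene, and SPRY2, at the gene's outer start. The AP-1 site TGACTCA was in 4.2% of windows and in none of the 12 of the members. The single window listed for SPRY4 belongs to a start 2208 bases inside the gene and overlaps an exon by 170 bases, so it is not shown, and it matched none of the 5 motifs. The single DUSP6 window, at the gene's outer start, is not shown either and matched none of them. The member windows had a median GC content of 64.0%, against 58.0% over all windows.

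In untreated RT4 cells the members spanned a wide range of levels per length. DUSP6 and DUSP5 were highest, with means of 106.0 ± 14.6 and 90.0 ± 14.2 TPM (SD, n = 2), which overlapped. DUSP1 (56.7 TPM), SPRY4 (42.8 TPM) and DUSP2 (40.7 TPM) followed and overlapped each other in this order, and the lower DUSP5 library was above the higher DUSP1 library. DUSP4 (20.2 TPM), DUSP10 (19.1 TPM), SPRY1 (18.0 TPM) and SPRY2 (12.5 TPM) formed an overlapping run below DUSP2. SPRED1 was lowest at 4.545 ± 2.60 TPM (SD, n = 2), still above 63.0% of the genes listed.

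By GENCODE annotation of GRCh38, the members lie apart, DUSP1 and SPRY4 alone sharing a chromosome. DUSP1 is at chr5:172768096-172771195, DUSP2 at chr2:96143169-96145440, DUSP5 at chr10:110497907-110511533, and DUSP6 at chr12:89347235-89352501. DUSP10 is at chr1:221701424-221742089, SPRY1 at chr4:123396795-123403760, SPRY2 at chr13:80335976-80341126, SPRY4 at chr5:142310427-142326455, and SPRED1 at chr15:38252836-38357249. Of the 3859 exonic bases of DUSP6, 28.6% overlap exons of an antisense gene, ENSG00000274021. The library kit is not described as stranded, so the reads of that pair cannot be told apart. The other 9 members share no exonic base with an antisense exon.

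**Figure D1:**
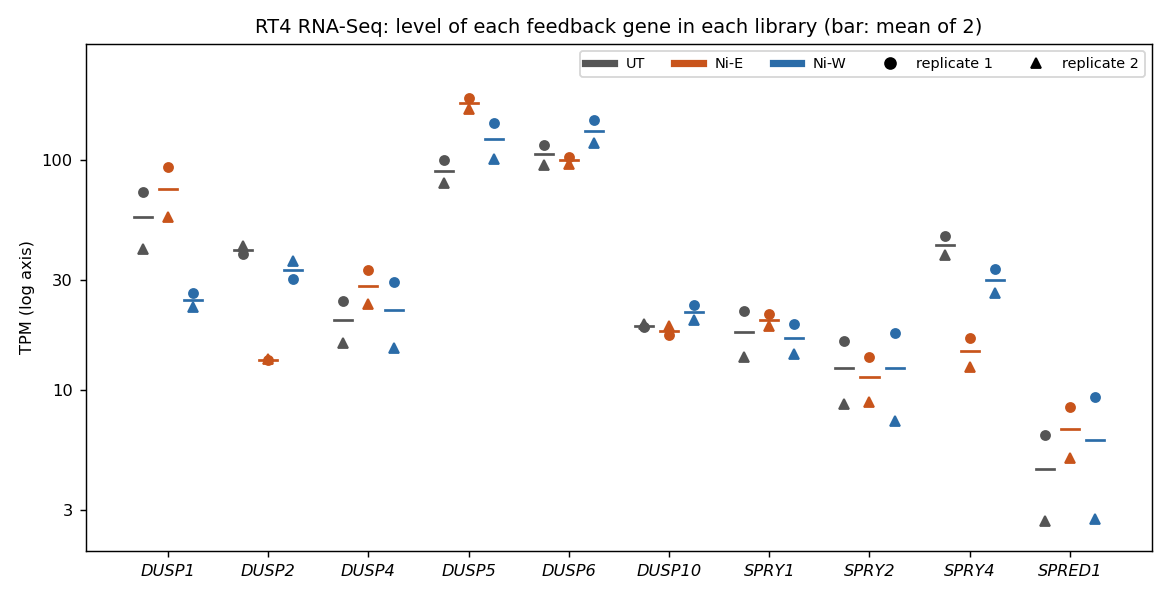
RNA level of each of the 10 genes in RT4, in TPM on a log axis, with circles for replicate 1, triangles for replicate 2 and bars for the mean of 2. DUSP2 and SPRY4 were lowest in both Ni-E libraries, DUSP5 was highest in both Ni-E libraries, and DUSP1 was lowest in both Ni-W libraries.

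The first question was what 6 weeks of nickel did to these brakes in RT4. SPRY4, which restrains signaling from the receptor to RAF, fell 2.93-fold in Ni-E cells, and DUSP5, the nuclear phosphatase of ERK, rose 1.96-fold. DUSP2, another nuclear phosphatase, was 3.04-fold lower but did not pass the adjusted threshold, and the remaining 7 members moved by less. Genes were called at a change of at least 1.5-fold with an adjusted p below 0.05, from edgeR's quasi-likelihood test with Benjamini-Hochberg adjustment over the 14502 genes tested. All 10 members passed the expression filter. Of all genes tested, 1.45% were called higher and 0.710% lower in Ni-E cells, and of the 10 members 1 was called in each direction. With 2 libraries a group, a gene that was not called is not shown to be unchanged.

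SPRY4 stood at 46.9 and 38.6 TPM in UT cells, 16.9 and 12.6 TPM in Ni-E cells, and 33.6 and 26.6 TPM in Ni-W cells. The 3 conditions did not overlap, with Ni-W between the others. Its log2 fold change in Ni-E against UT cells was -1.55 ± 0.18 (SE), with an edgeR adjusted p of 0.0218. DUSP5 stood at 100.0 and 80.0 TPM in UT, 186.5 and 167 TPM in Ni-E, and 146 and 102 TPM in Ni-W cells. Again every Ni-E library was beyond every UT library, and the Ni-W libraries lay between them. The log2 fold change of DUSP5 in Ni-E against UT cells was 0.97 ± 0.15 (SE), with an edgeR adjusted p of 0.0419.

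In TPM, DUSP2 had the tightest Ni-E values of all members, 13.5 and 13.7 TPM, against 39.0 and 42.4 TPM in UT cells and 30.4 and 36.4 TPM in Ni-W cells. Both Ni-E libraries were below the other 4. The log2 fold change in Ni-E against UT cells was -1.60 ± 0.29 (SE), with an edgeR adjusted p of 0.0615. The 2 UT libraries of DUSP2 differed more as TMM-scaled counts, by -0.39 on the log2 scale (replicate 1 minus replicate 2), than as TPM. Its 2 Ni-E libraries also did, by -0.185, and on that scale the Ni-E pair of DUSP5 was tighter, at -0.002.

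Same-numbered libraries deviated together across the conditions, and a replicate block in the edgeR model changed the calls. With the block, 7.64% of all genes tested were called higher and 5.00% lower in Ni-E than in UT cells, and 4 of the 10 members were called. SPRY4 (adjusted p = 1.09e-05), DUSP5 (adjusted p = 5.94e-05) and DUSP2 (log2 fold change -1.60 ± 0.15 SE, adjusted p = 4.41e-05) were called by edgeR with the block. SPRED1 was the fourth member called with the block, at 0.66 ± 0.18 (SE) on the log2 scale with an edgeR adjusted p of 0.0306. DESeq2 without the block called DUSP2, DUSP5 and SPRY4, where it called 2.79% of all genes higher and 1.63% lower. With any 1 of the UT or Ni-E libraries left out no member was called, in models that take the spread of the lone library from the other groups and that called 0 to 44 genes in all. The edgeR adjusted p then ran from 0.126 to 0.252 for SPRY4 and from 0.291 to 0.361 for DUSP5, while the log2 fold changes kept to -1.69 to -1.42 and 0.94 to 1.00. DUSP5 was also not called without Ni-W replicate 2, a library outside this comparison that enters the shared spread, the expression filter and the scaling. With limma on log2(TPM + 1) the adjusted p was 0.0644 for SPRY4 and 0.167 for DUSP5.

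**Figure D2:**
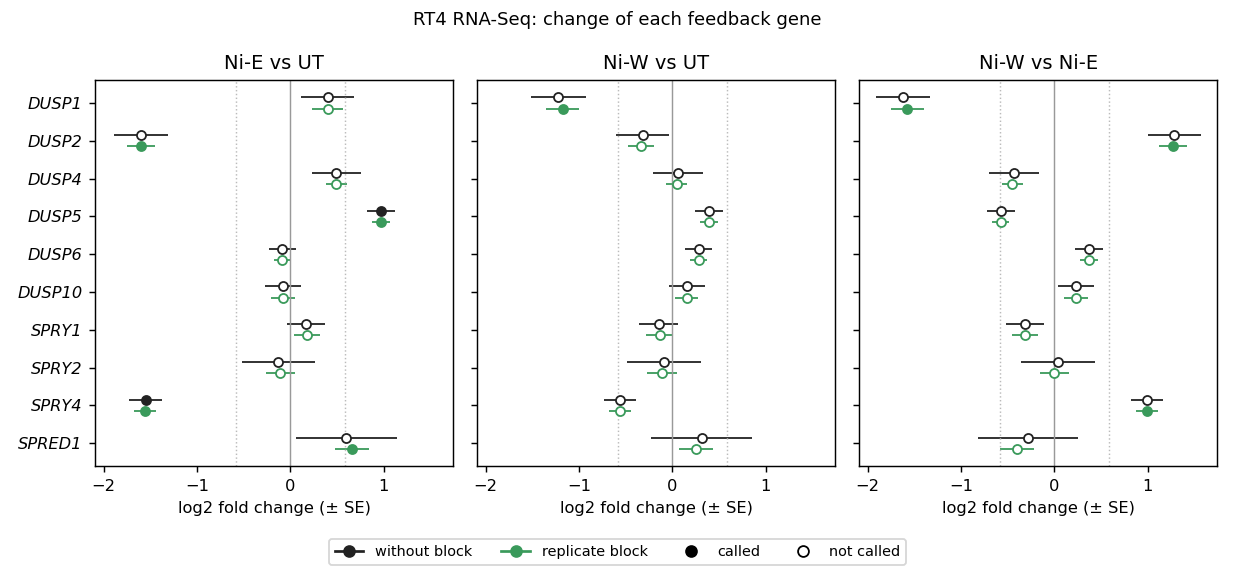
Log2 fold change with its standard error for each gene in the 3 RT4 comparisons, from edgeR without (black) and with (green) the replicate block, where filled points are called and dotted lines mark 1.5-fold. The estimates of both models nearly coincide and the standard errors are smaller with the block, most visibly for SPRY2 and SPRED1.

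The next question was whether the brakes differed from untreated cells 2 weeks after nickel was removed. DUSP1, the early-response phosphatase that acts on p38, JNK and ERK, differed most, at 72.5 and 40.9 TPM in UT, 93.3 and 56.4 TPM in Ni-E, and 26.5 and 22.9 TPM in Ni-W cells. Both Ni-W libraries were below the other 4. The log2 fold change in Ni-W against UT cells was -1.22 ± 0.29 (SE), with an edgeR adjusted p of 0.192. SPRY4 was 1.47-fold lower in Ni-W than in UT cells (log2 fold change -0.56 ± 0.17 SE, edgeR adjusted p = 0.335), and DUSP5 was 1.31-fold higher. No member was called in Ni-W against UT cells, where 0.503% of all genes tested were called higher and 0.0965% lower. At an unadjusted edgeR p below 0.05 there were 3 members, DUSP1, SPRY4 and DUSP5, against 9.12% of all genes tested.

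With the replicate block, 5.79% of all genes were called higher and 2.78% lower in Ni-W than in UT cells, and DUSP1 was the only member called, at -1.17 ± 0.17 (SE) on the log2 scale with an edgeR adjusted p of 0.00152. DESeq2 also called DUSP1, with an adjusted p of 0.0144, where it called 2.27% of all genes higher and 0.665% lower. SPRY4 had an adjusted p of 0.00963 in edgeR with the block, but its change of 1.47-fold was under the fold required.

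The third comparison, Ni-W against Ni-E cells, asked how cells 2 weeks after exposure differed from cells still in nickel. The 2 weeks of further culture and the removal of nickel cannot be told apart in it. DUSP2 was 2.44-fold higher and SPRY4 1.99-fold higher in Ni-W than in Ni-E cells, and DUSP1 was 3.08-fold lower. edgeR without the block called 0 of the 14502 genes in this comparison, 0% in each direction, although 808 genes (5.57%) had an unadjusted p below 0.05, and DESeq2 called 139. Of the members, 5 had an unadjusted edgeR p below 0.05. These were DUSP1 (log2 fold change -1.62 ± 0.29 SE), DUSP2 (1.29 ± 0.29 SE), SPRY4 (0.99 ± 0.17 SE), DUSP5 (-0.57 ± 0.15 SE) and DUSP6 (0.37 ± 0.14 SE). With the block, edgeR called 2.72% of all genes higher and 1.80% lower, and it called DUSP2 (adjusted p = 0.000975) and SPRY4 (adjusted p = 0.000975) higher and DUSP1 (adjusted p = 0.000713) lower. DESeq2 called these same 3 members in Ni-W against Ni-E cells, where it called 0.606% of all genes higher and 0.341% lower. The 3 comparisons share their libraries, so their values for a gene are not independent of each other.

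The other 6 members were called in no RT4 comparison without the block. DUSP6, the cytoplasmic ERK phosphatase, stood at 116 and 95.7 TPM in UT, 104 and 96.5 TPM in Ni-E, and 149 and 119 TPM in Ni-W cells. In TPM both Ni-W libraries were the highest, by a margin smaller than the gap between them. As TMM-scaled counts (CPM) DUSP6 stood at 211.4 and 207.8 in UT, 193.4 and 201.4 in Ni-E, and 250.5 and 260.5 in Ni-W cells. On that scale the margin was larger than the gap. With the block DUSP6 had an edgeR adjusted p of 0.0412 in Ni-W against Ni-E cells, but its change of 1.29-fold was under the fold required. DUSP10, the phosphatase of JNK and p38, kept within 17.4 to 23.4 TPM over all 6 libraries, the narrowest range of any member. DUSP4, a nuclear phosphatase, stood at 24.35 and 16.1 TPM in UT, 33.2 and 23.6 TPM in Ni-E, and 29.5 and 15.2 TPM in Ni-W cells, and its groups overlapped.

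SPRY1 and SPRY2, which like SPRY4 act between receptor and RAF, gave overlapping groups. SPRY1 ranged from 13.9 to 22.0 TPM over the 6 libraries. SPRY2 ranged from 7.33 to 17.7 TPM, with replicate 1 above replicate 2 in every condition. SPRED1 behaved likewise, at 6.38 and 2.71 TPM in UT, 8.46 and 5.09 TPM in Ni-E, and 9.36 and 2.75 TPM in Ni-W cells. As TMM-scaled counts, replicate 1 of SPRED1 exceeded replicate 2 by 0.97, 0.57 and 1.37 on the log2 scale in the order UT, Ni-E, Ni-W, and only 5.6% of 13235 genes had a larger mean difference of this kind. For SPRY2 the same differences were 0.65, 0.48 and 0.87. These gaps between replicates are larger than either gene's fold change between conditions in the model without the block, except for the SPRED1 gap of 0.57 in Ni-E cells. In bulk samples like these, less RNA per cell and fewer cells that make it cannot be told apart.

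The gene whose pattern over the 6 RT4 libraries was most like that of SPRY4, the called member with the largest change, was PADI3 (Pearson r = 0.995 of log2 CPM). PADI3 encodes a peptidylarginine deiminase and stood at 117 and 96.3 TPM in UT, 23.2 and 19.7 TPM in Ni-E, and 65.3 and 53.35 TPM in Ni-W cells. PADI1, of the same gene family (r = 0.994), and SYTL4 (r = 0.993), a granule-docking protein, came next. Of 13234 genes compared, 288 had an r of at least 0.9 and 8 of at least 0.99 with SPRY4, over 6 libraries that share 3 conditions.

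Other genes of the pathway were followed as lists, also chosen with earlier results of these data known. In Ni-E against UT cells, edgeR without the block called 3 of the listed genes, all higher. EGR1, an ERK-induced transcription factor, rose 5.07-fold, from 36.6 and 21.8 TPM in UT to 186.5 and 109.9 TPM in Ni-E cells (adjusted p = 0.0280), and stood at 62.5 and 36.9 TPM in Ni-W cells. ERRFI1, an inhibitor of the EGF receptor kinase, rose 2.325-fold, from 22.8 and 14.7 TPM to 45.9 and 40.7 TPM (adjusted p = 0.0493). TGFA, a ligand of the EGF receptor, rose 2.255-fold, from 16.9 and 13.4 TPM to 38.6 and 30.2 TPM (adjusted p = 0.0472). In all of these the UT and Ni-E libraries did not overlap.

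By list, 1 of 12 ERK-responsive transcripts, 1 of 10 other receptor and RAS brakes and 1 of 6 tested EGFR and FGF ligands were called higher in Ni-E cells, against 1.45% of all genes. None of the 5 other MAPK phosphatases, 2 tested SPRY and SPRED relatives, 8 receptors, 15 members of the RAS-RAF-MEK-ERK cascade or 10 tested members of the JNK and p38 cascade was called in that comparison by edgeR without the block, although 3 of the other phosphatases and 3 receptors had an unadjusted p below 0.05, against 12.2% of all genes. Of these receptors FGFR1 and MET were higher and ERBB2 was lower in Ni-E than in UT cells. DESeq2 called DUSP7 and DUSP8 in that comparison, besides EGR1, ERRFI1 and TGFA. The median log2 fold change in Ni-E against UT cells was 0.49 for the ERK-responsive transcripts, of which 12 were above 0, and 0.56 for the other MAPK phosphatases, of which 5 were above 0, against -0.012 for all genes tested. For the 10 members it was 0.045, with 5 above and 5 below 0. For the cascade itself the median was 0.15.

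In Ni-W against UT cells and in Ni-W against Ni-E cells, edgeR without the block called none of these listed genes. At an unadjusted p below 0.05 there were 4 and 6 of the 12 ERK-responsive transcripts and 3 and 0 of the 5 other MAPK phosphatases, against 9.12% and 5.57% of all genes. DESeq2 called DUSP7, DUSP8 and ERRFI1 higher and FOS lower in Ni-W than in UT cells, and EGR1, FOS, IER3 and EPHA4 lower in Ni-W than in Ni-E cells. The median log2 fold change of the ERK-responsive transcripts was -0.26 against UT and -0.76 against Ni-E cells, where 11 of 12 were below 0, while all genes had medians of 0.0012 and 0.018. For the other MAPK phosphatases the medians were 0.75 and 0.19.

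With the replicate block more of the listed genes were called. In Ni-E against UT cells, where 7.64% of all genes were called higher and 5.00% lower with the block, 5 of the 12 ERK-responsive transcripts (EGR1, FOSL1, IER3, MYC and EPHA4) and 2 of the 5 other MAPK phosphatases (DUSP7 and DUSP8) were called higher. Also higher with the block were 2 of the 10 other brakes, ERRFI1 and IL17RD (edgeR adjusted p = 0.0329), a receptor-bound inhibitor of FGF signaling. Of the 6 tested ligands, TGFA, HBEGF (adjusted p = 0.00696) and the FGF-binding protein FGFBP1 (adjusted p = 0.00107) were called higher by edgeR with the block, as were 2 of the 8 receptors, FGFR1 (adjusted p = 0.0196) and MET (adjusted p = 0.00257). FGFR1 was low, at 0.15 and 0.15 TPM in UT and 0.83 and 0.47 TPM in Ni-E cells. ERBB2, a receptor at 145 and 107.5 TPM in UT cells, was 1.435-fold lower in Ni-E cells with the block. Its edgeR adjusted p was 0.00269, but the change was under the fold required. No gene of these lists was called lower in this comparison, and none of either kinase cascade was called.

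In Ni-W against UT cells, with 5.79% of all genes called higher and 2.78% lower with the block, EGR1, FOSL1 and CCND1 were called higher and FOS and IER3 lower among the ERK-responsive transcripts. DUSP7, DUSP8 and DUSP9, ERRFI1, TGFA and MET were also called higher there. In Ni-W against Ni-E cells, with 2.72% called higher and 1.80% lower, 9 of the 12 ERK-responsive transcripts and the ligand-list genes HBEGF and FGFBP1 were called lower.

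Some of these genes were picked after their values had been seen. DUSP7, a cytoplasmic ERK phosphatase, stood at 15.0 and 11.5 TPM in UT, 28.8 and 24.5 TPM in Ni-E, and 28.9 and 19.6 TPM in Ni-W cells. Its 2 UT libraries were below the other 4, with an edgeR adjusted p of 0.0573 without and 1.99e-04 with the block in Ni-E against UT cells. FOS, a partner in the AP-1 factor, stood at 553 and 550.4 TPM in UT, 587 and 535 TPM in Ni-E, and 157 and 249 TPM in Ni-W cells. Both Ni-W libraries of FOS, as of DUSP1, were below the other 4, and the log2 fold change in Ni-W against UT cells was -1.44 ± 0.35 (SE), with an edgeR adjusted p of 0.202 without and 6.16e-04 with the block. MYC, a growth-promoting transcription factor, stood at 66.4 and 23.45 TPM in UT, 158 and 65.55 TPM in Ni-E, and 64.3 and 20.9 TPM in Ni-W cells. Replicate 1 of MYC was far above replicate 2 in every condition, and within each replicate number Ni-E was the highest. In edgeR without the block its adjusted p was 0.522 in Ni-E against UT cells. With the block MYC was 2.55-fold higher in Ni-E than in UT cells (edgeR adjusted p = 9.08e-06) and 2.86-fold lower in Ni-W than in Ni-E cells (adjusted p = 3.63e-05).

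**Figure D3:**
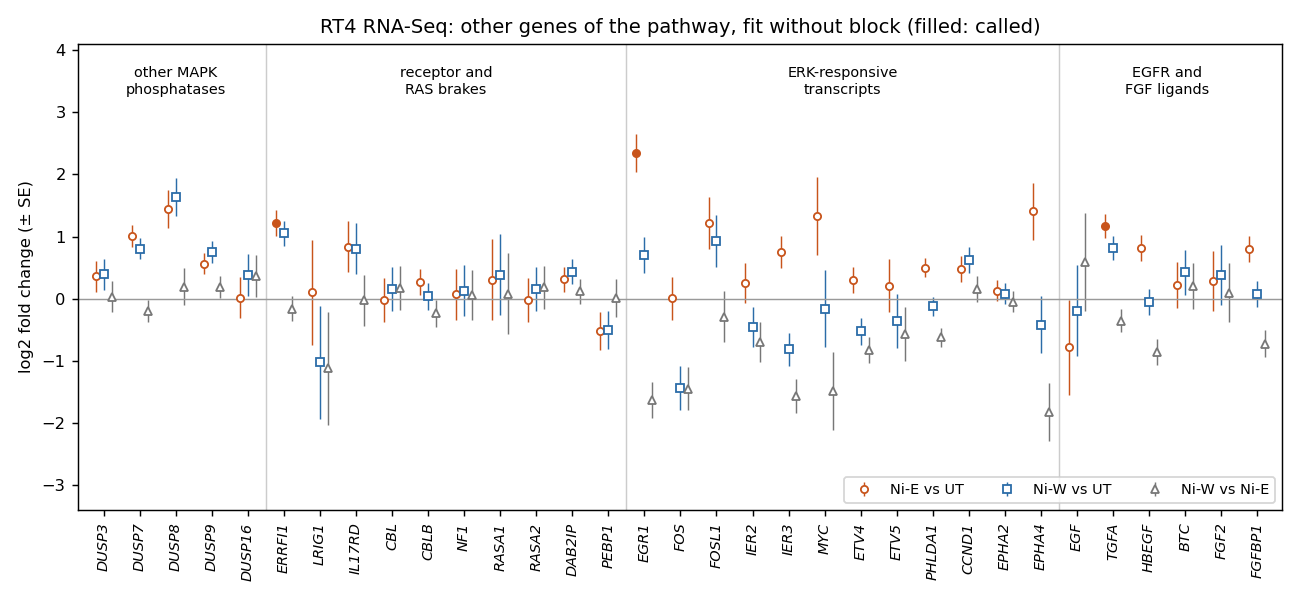
Log2 fold change with its standard error in RT4 for the tested genes of 4 lists, from edgeR without the block, with filled symbols for called genes. EGR1, ERRFI1 and TGFA are filled in Ni-E against UT cells, and 11 of the 12 ERK-responsive transcripts lie below 0 in Ni-W against Ni-E cells.

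H3K4me3 in BEAS-2B was examined within 2 kb of each transcription start. There was 1 library per condition, although the labels speak of ChIP on several biological replicates without saying whether they were pooled. No test of the condition was therefore possible, and intervals given here cover counting error only. Depth came to 28385716 reads in UT, 37493942 in Ni-E and 29933506 in Ni-W cells, recovered from the step that 1 read makes in the RPKM values. All 10 member promoters were marked, from 3.91 to 13.85 RPKM in UT cells, where the median promoter had 1.57 RPKM. DUSP1 was the highest, above 98.5% of promoters, and DUSP2 the lowest, above 59.8%.

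The DUSP2 promoter differed most between the libraries. It held 3.91 RPKM in UT (444 reads, 95% Wilson interval 3.56 to 4.29), 5.46 RPKM in Ni-E (819 reads, 5.10 to 5.85) and 1.38 RPKM in Ni-W cells (165 reads, 1.18 to 1.605). After each library was divided by its median promoter, the level was 1.58-fold higher in Ni-E than in UT cells, 2.025-fold lower in Ni-W than in UT cells, and 3.20-fold lower in Ni-W than in Ni-E cells. The Ni-E ratio exceeded that of 99.3% of the 14127 scored promoters, those that reached 1 RPKM in some library, and the Ni-W ratios exceeded those of 1.2% and 0.1%. In both comparisons of the Ni-W library the DUSP2 promoter passed 1.5-fold under each scaling tried. In Ni-E against UT it did so only after median scaling of the RPKM as deposited, at 0.66 on the log2 scale, against 0.48 without scaling and 0.56 after quantile normalization. By GENCODE, another gene starts within 2 kb of the start of DUSP1, DUSP2, DUSP4, DUSP5 and SPRY4, and 2 others within 2 kb of that of DUSP6. Their share of the signal at these promoters was not tested.

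In Ni-E against UT cells DUSP2 was the only member promoter past 1.5-fold, where 1.01% of scored promoters were past it upward and 0.595% downward. DUSP5 and SPRY4 came next, at 0.41 (95% counting interval 0.28 to 0.55) and 0.37 (0.21 to 0.53) on the log2 scale, above 97.5% and 96.4% of scored promoters. The median over scored promoters was 0.11 and that over the members 0.21. The sign of DUSP1, DUSP4, DUSP6, DUSP10 and SPRY1 turned from above to below 0 without median scaling, and that of DUSP4, DUSP6 and SPRY1 also after quantile normalization.

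In Ni-W against UT cells DUSP2 was again the only member past 1.5-fold, downward, where 4.39% of scored promoters were past it upward and 18.4% downward. The members had a median log2 ratio of -0.22 and all scored promoters one of -0.32. DUSP1 went from 13.85 to 6.865 RPKM, -0.53 on the log2 scale after median scaling, DUSP5 from 6.465 to 3.28 RPKM (-0.49), and DUSP6 from 10.0 to 5.12 RPKM (-0.48). SPRED1 lost the least, at 8.78 RPKM in UT, 9.20 RPKM in Ni-E and 8.08 RPKM in Ni-W cells. Its median-scaled log2 ratio of 0.37 (95% counting interval 0.24 to 0.49) was above 92.4% of scored promoters, while promoters of like level had a median of -0.35, but its sign turned to -0.12 without median scaling. SPRY1 and SPRY4, at 0.026 and 0.12, were also below 0 without that scaling, and DUSP10 and SPRY2, at -0.12 and -0.083, were above 0 after quantile normalization.

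In Ni-W against Ni-E cells DUSP1 (1.59-fold), DUSP2 (3.20-fold), DUSP5 (1.87-fold) and DUSP6 (1.505-fold) were past 1.5-fold downward, where 30.3% of scored promoters were past it downward and 4.07% upward. DUSP6 was just past the fold, and DUSP4, at 1.32-fold lower, was the nearest member short of it. Without median scaling 7 of the 10 members were past the fold downward, as were 9009 of the 14127 scored promoters. After quantile normalization DUSP2 was the only member past it, beside 860 of the 14127 scored promoters downward. The share of each library's reads that lay in the listed promoters was 37.6% in UT, 36.0% in Ni-E and 22.9% in Ni-W cells, and its part in these ratios was not tested.

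**Figure D4:**
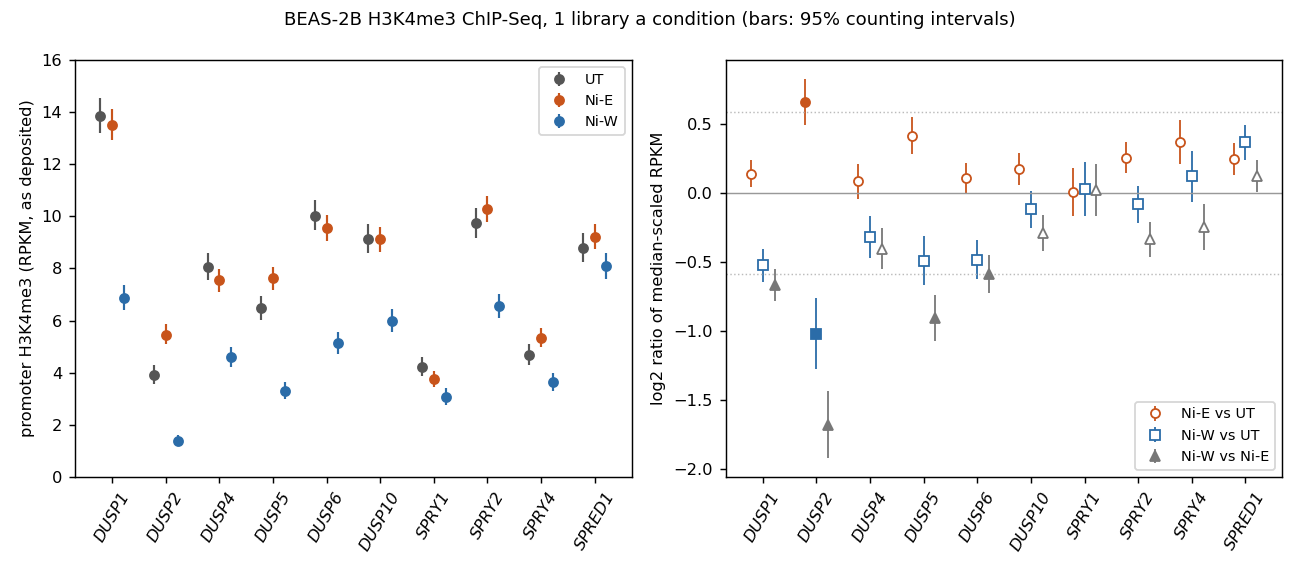
H3K4me3 at the 10 promoters in BEAS-2B, as deposited RPKM by condition (left) and as log2 ratio of median-scaled RPKM (right), with 95% counting intervals, filled symbols past 1.5-fold and 1 library per condition. DUSP2 runs from 3.91 to 5.46 to 1.38 RPKM from UT through Ni-E to Ni-W, while SPRED1 stays between 8.08 and 9.20 RPKM.

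The genes called in RT4 were also looked up in BEAS-2B. The EGR1 promoter held 11.4 RPKM in UT, 10.5 RPKM in Ni-E and 5.33 RPKM in Ni-W cells, ERRFI1 held 8.94, 7.89 and 4.73 RPKM, and TGFA held 5.04, 4.63 and 2.56 RPKM in the same order. As deposited, all of these and each of the 10 members were lowest in the Ni-W library, as were 92.1% of the scored promoters. RNA in BEAS-2B and H3K4me3 in RT4 were not analysed here, so the RNA and promoter values of a gene come from different cells and are not paired.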

How the data were processed

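RNA-Seq in RT4 (6 libraries) and H3K4me3 ChIP-Seq in BEAS-2B (3 libraries) were analysed from the deposited gene tables. The authors deposited RSEM expected counts and TPM for RT4. The sources name STAR for alignment, with hg19 in the study's methods and GRCh38 in the submitters' processing notes, so gene positions given here are from GENCODE v44 and not from the files. For BEAS-2B the authors deposited RPKM within 2 kb of each transcription start, after alignment with BWA to hg38 and removal of redundant reads. Input libraries had no table and were not used here.

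Expected counts were rounded and tested with edgeR 4.0.16 (R 4.3.3) by the quasi-likelihood test. A single model held all groups, with TMM factors and the edgeR expression filter and without a block. A call needed at least 1.5-fold and an adjusted p below 0.05. DESeq2 1.42.0, limma 3.58.1 on log2(TPM + 1) and log2(TPM + 0.1), other scalings and filters, a replicate block and each library left out were the alternatives. Nothing in the sources says that a replicate number marks a shared culture, and p-values measure only the spread between these libraries.

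Pairing was checked on deviations from the group means over 13235 genes. Libraries with the same number, which the sample titles give by a suffix for the duplicate, correlated at 0.738 (UT and Ni-E), 0.834 (UT and Ni-W) and 0.759 (Ni-E and Ni-W). With 2 libraries a group, both pairs of a comparison share a value. The block was therefore taken as a pairing and its values are given beside results whose call it changes. This reading was settled when the calls of both models were already known, so the model without the block stayed the main one.

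H3K4me3 levels were divided by each library's median over all 26237 listed promoters. Ratios were then scored for promoters with at least 1 RPKM in any library. Reads were recovered from the RPKM step, and all values were whole within 0.00051 RPKM. Named genes were all members, the called list genes with the largest rise or fall (2 each per list and comparison, mean of at least 1 CPM), and the 3 genes most like the called member with the largest change. Other list genes, among them DUSP7, FOS, MYC, ERBB2 and those named for a call by DESeq2 or with the block, were added after their values were seen. The members and lists were chosen with earlier results of these data known.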

Additional observations from a re-analysis of the deposited data

How the results depend on the processing

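The cause was not tested for any of these changes. The number of genes called in Ni-E against UT cells was 314 in the main model, and it was 730 with DESeq2, 209 with at least 10 counts in every library, 170 and 173 with limma on log2(TPM + 1) and log2(TPM + 0.1), 1833 with the replicate block, and 0 to 320 with 1 library left out. The members called there were 2 in the main model, 1 with limma at either pseudocount, 4 with the replicate block and 0 to 3 with 1 library left out. With limma on log2(TPM + 1) the member called was neither SPRY4 nor DUSP5, the 2 called in the main model. In Ni-W against UT cells 87 genes were called in the main model, 442 with DESeq2, 193 without a filter, 54 with at least 10 counts in every library, 1243 with the replicate block, 0 with only the groups compared, and 0 to 38 with 1 library left out. The members called were 0 in the main model and 1 with DESeq2 or the replicate block. In Ni-W against Ni-E cells 0 genes were called in the main model, 139 with DESeq2, 14 without a filter, 11 with limma on log2(TPM + 0.1) and 655 with the replicate block, and the members called went from 0 to 3 with DESeq2 or the block.

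Of the members' RT4 fold changes, 17 alternatives turned a sign, all for changes that were not called. In Ni-E against UT cells the log2 values with 1 library left out ran from -0.22 to 0.046 for DUSP10 (turned without UT replicate 2, at 0.0071, and without Ni-E replicate 1), from -0.023 to 0.38 for SPRY1 (UT replicate 2), and from -0.42 to 0.23 for SPRY2 (UT replicate 1 and, at 0.096, Ni-E replicate 2). In Ni-W against UT cells they ran from -0.24 to 0.32 for DUSP4 (Ni-W replicate 1 and, at -0.096, UT replicate 2), from -0.34 to 0.071 for SPRY1 (UT replicate 1), from -0.58 to 0.29 for SPRY2 (Ni-W replicate 2 and, at 0.27, UT replicate 1), and from -0.52 to 0.88 for SPRED1 (Ni-W replicate 1 and, at -0.093, UT replicate 2). In Ni-W against Ni-E cells they ran from -0.45 to 0.42 for SPRY2 (Ni-W replicate 1 and, at -0.18, Ni-E replicate 2) and from -1.11 to 0.25 for SPRED1 (Ni-W replicate 2 and, at 0.031, Ni-E replicate 1), and SPRY2 was -0.0020 with the replicate block. In 403 alternatives the direction and the call were kept, and 17 gained and 13 lost the call without a turn of sign.

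In BEAS-2B 14127 promoters were scored. Those past 1.5-fold in either direction were 227 in Ni-E against UT (1 member), 3216 in Ni-W against UT (1 member) and 4862 in Ni-W against Ni-E (4 members). Without median scaling they were 10296 (6 members) in Ni-W against UT and 9325 (7 members) in Ni-W against Ni-E, and 0 members were past it in Ni-E against UT. After quantile normalization they were 1903 (2 members) and 1988 (1 member), and again 0 members in Ni-E against UT. With 1 added to each scaled level they were 34 (0 members), 1318 and 2568. Without a minimum level, where 25233, 25200 and 25209 promoters were scored, they were 3645, 8573 and 9739. At 2-fold they were 45 (0 members), 483 and 631 (1 member). In quantile-normalized Ni-W against UT the 2 members were DUSP2, lower, and SPRED1, higher. With 3 reads as the floor, depth did not limit the member promoters, which held at least 165 reads.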
